A study of Mus musculus with 6 samples.

Results

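The nuclear genes of the mitochondrial respiratory chain were compared between mouse endothelial cells (ECs) with and without vascular endothelial cadherin (VEC). Members were chosen by symbol as the protein-coding genes that start with *Nduf*, *Uqcr*, *Cox4* to *Cox8* or *Atp5*, together with *Sdha*, *Sdhb*, *Sdhc* and *Sdhd*. The GENCODE M21 annotation holds 94 such genes, and 90 of the 24080 genes of the counts table matched them. VEC-null ECs come from mouse embryonic stem cells in which both copies of the VEC gene are null, and VEC-positive ECs are the same line given wild-type VEC by a retrovirus. Sequencing of total RNA covered 3 libraries of each. Both groups therefore share the stem cell line and the null allele, and the comparison is between one line and its reconstituted derivative. The study calls the libraries of a group biological replicates without saying whether these were separate cultures or clones, and p-values measure the spread between these libraries.

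The respiratory chain sits in the inner mitochondrial membrane. Complex I (NADH dehydrogenase) and complex II (succinate dehydrogenase) pass electrons to coenzyme Q, complex III (cytochrome bc1) passes them to cytochrome c, complex IV (cytochrome c oxidase) passes them to oxygen, and complex V (ATP synthase) uses the proton gradient to make ATP. Most subunits are encoded in the nucleus, while a small set in complexes I, III, IV and V is encoded by mitochondrial DNA. Each of these complexes therefore needs transcripts of both genomes.

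The libraries held 6036155 to 14136376 reads. *Cdh5*, the gene for VEC, went against the labels, with 1334, 1439 and 1689 normalized counts under the VEC-null label and 794.3, 739.4 and 749.7 under the VEC-positive label (log2 fold change -0.96, adjusted p = 0.000182, limma). The count does not show whether reads come from the null allele or the transferred VEC, and all directions below are those of the labels. VEC-null 3 stood apart from its group: per gene, the chi-square was 48.9 to VEC-null 1, 49.7 to VEC-null 2 and 6.52 between these last libraries. The summed counts of 10 endothelial markers ran from 47668 to 50948 in VEC-null and from 69142 to 70956 in VEC-positive libraries, and 8 of the 10 rose while *Cdh5* fell. Those of 9 mural and fibroblast markers ran from 86.9 to 214 and from 265 to 320, those of 4 pluripotent stem cell markers from 3.55 to 10.7 and from 0.97 to 13.7, and those of 3 blood markers from 13.8 to 36.4 and from 10.5 to 12.7. The part of these markers in the member results was not tested, and in bulk RNA fewer cells of a type and less RNA per cell cannot be told apart.

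Respiratory chain promoters are known for binding sites of NRF1, of GABP and other ETS factors, and of YY1. RefSeq promoters on GRCm38.p6, each 300 bases from 250 before to 50 after the start, were matched for 74 of the 90 members. Shares are of genes, and a gene was counted if any of its promoters matched. The letters GCGCA, any base and GCGC (NRF1) on either strand stood in 25.7% of these members. They stood in 11.8% of 9464 tested genes and in 5.19% of all 27025 genes with a promoter. The letters AANATGGCG (YY1) stood in 14.9%, 6.20% and 2.76%, and CCGGAAG (ETS) in 24.3%, 20.8% and 9.93%. The letters GGGCGG (SP1), also searched, went the other way against tested genes, at 44.6%, 69.5% and 38.2%. Of members with a promoter, an NRF1, YY1 or ETS motif was found for 6 of 10 that rose, 2 of 7 that fell and 33 of 55 that did not pass. This held for 55.4% of the 74 members and 33.8% of the 9464 tested genes. Promoters are printed for 6 members whose difference passed the test under every processing setting tried, so that genes that rose and genes that fell can be read side by side. Capitals mark an NRF1, ETS or YY1 match on either strand, and the sequence is given 5′ to 3′ on the gene's strand.
*Ndufa8* (rose, chr2:36049289-36049588, minus strand): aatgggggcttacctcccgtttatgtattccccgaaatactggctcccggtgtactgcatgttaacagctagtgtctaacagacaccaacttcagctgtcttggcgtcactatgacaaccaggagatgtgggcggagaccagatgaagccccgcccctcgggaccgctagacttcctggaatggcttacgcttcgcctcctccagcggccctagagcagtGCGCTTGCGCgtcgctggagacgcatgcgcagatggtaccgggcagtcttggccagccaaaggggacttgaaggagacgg
*Ndufs8* (rose, chr19:3912725-3913024, minus strand): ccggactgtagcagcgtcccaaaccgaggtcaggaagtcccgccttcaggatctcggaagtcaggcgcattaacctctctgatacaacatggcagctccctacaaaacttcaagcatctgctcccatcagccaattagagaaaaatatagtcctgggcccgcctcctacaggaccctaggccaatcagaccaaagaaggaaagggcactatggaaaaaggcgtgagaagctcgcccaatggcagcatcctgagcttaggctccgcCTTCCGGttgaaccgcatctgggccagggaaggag
*Ndufa12* (rose, chr10:94198785-94199084, plus strand): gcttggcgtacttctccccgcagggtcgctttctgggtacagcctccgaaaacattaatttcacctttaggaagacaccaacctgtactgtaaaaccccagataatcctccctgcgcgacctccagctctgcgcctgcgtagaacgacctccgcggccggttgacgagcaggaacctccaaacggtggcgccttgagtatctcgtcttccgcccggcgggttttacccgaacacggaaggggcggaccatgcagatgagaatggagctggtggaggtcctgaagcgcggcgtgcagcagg
*Ndufs4* (fell, chr13:114388045-114388344, minus strand): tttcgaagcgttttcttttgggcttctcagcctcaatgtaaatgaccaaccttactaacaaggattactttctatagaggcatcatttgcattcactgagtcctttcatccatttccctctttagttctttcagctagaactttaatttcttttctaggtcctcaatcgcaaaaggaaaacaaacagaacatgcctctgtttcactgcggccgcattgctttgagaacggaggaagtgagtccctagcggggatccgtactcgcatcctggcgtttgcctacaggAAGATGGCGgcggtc
*Cox5b* (fell, chr1:36691237-36691536, plus strand): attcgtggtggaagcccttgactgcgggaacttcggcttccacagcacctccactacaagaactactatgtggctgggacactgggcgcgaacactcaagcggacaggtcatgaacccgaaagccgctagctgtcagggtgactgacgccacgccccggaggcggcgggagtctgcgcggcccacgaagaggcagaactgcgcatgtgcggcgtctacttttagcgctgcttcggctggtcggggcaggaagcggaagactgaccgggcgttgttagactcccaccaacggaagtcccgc
*Cox7c* (fell, chr13:86046746-86047045, minus strand): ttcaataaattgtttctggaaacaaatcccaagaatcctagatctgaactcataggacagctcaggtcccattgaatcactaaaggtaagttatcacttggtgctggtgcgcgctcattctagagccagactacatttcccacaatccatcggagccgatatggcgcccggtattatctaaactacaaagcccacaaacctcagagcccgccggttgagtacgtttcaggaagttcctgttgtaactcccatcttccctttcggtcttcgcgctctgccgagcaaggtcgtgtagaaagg
*Ndufa8* holds an NRF1 match, *Ndufs8* an ETS match and *Ndufs4* a YY1 match. *Ndufa12*, *Cox5b* and *Cox7c* hold no NRF1, ETS or YY1 match in the window, which says nothing about the factors themselves.

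Members moved in both directions. Of the 86 that reached 10 normalized counts in 3 or more libraries, 12 were higher in VEC-positive cells, 10 were lower and 64 did not pass an adjusted p of 0.05 in limma. Among all 14032 genes tested, 20.9% were higher and 16.4% lower (37.3% called in all), beside 25.6% of the members called in all. The median log2 fold change was -0.05 over the members and -0.01 over all tested genes, and the median absolute value was 0.26 and 0.39. For 77 of the 86 members (89.5%) the 95% interval of the fold change lay within 2-fold either way, which held for 59.6% of all tested genes. The members also had higher counts, with a median of 231 normalized counts against 157 over all tested genes. The part of count level in the width of these intervals was not tested. Only *Cox8b* passed with a change of at least 2-fold, where 13.9% of tested genes did. The groups did not overlap for 30 members, and for 50% of tested genes.

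The split between higher and lower depended on the scaling of the libraries. Scaling to equal totals moved the median of all tested genes to -0.32 and that of the members to -0.36, with 4 members higher and 35 lower. Of all tested genes 11.2% were then higher and 35.3% lower. Scaling to equal totals outside the mitochondrial genome moved these medians to -0.16 and -0.19, with 6 members higher and 14 lower. Here 14.6% of all tested genes were higher and 22.6% lower. In all, 3 higher calls and 5 lower calls stood under all 19 alternative settings. The higher calls were *Ndufa8*, *Ndufa12* and *Ndufs8*, and *Ndufs1*, *Ndufs4*, *Cox5b* and *Cox7c* were among the lower ones. The matching share over all tested genes is not given here, so these counts do not compare the members with other genes.

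**Figure D1:**
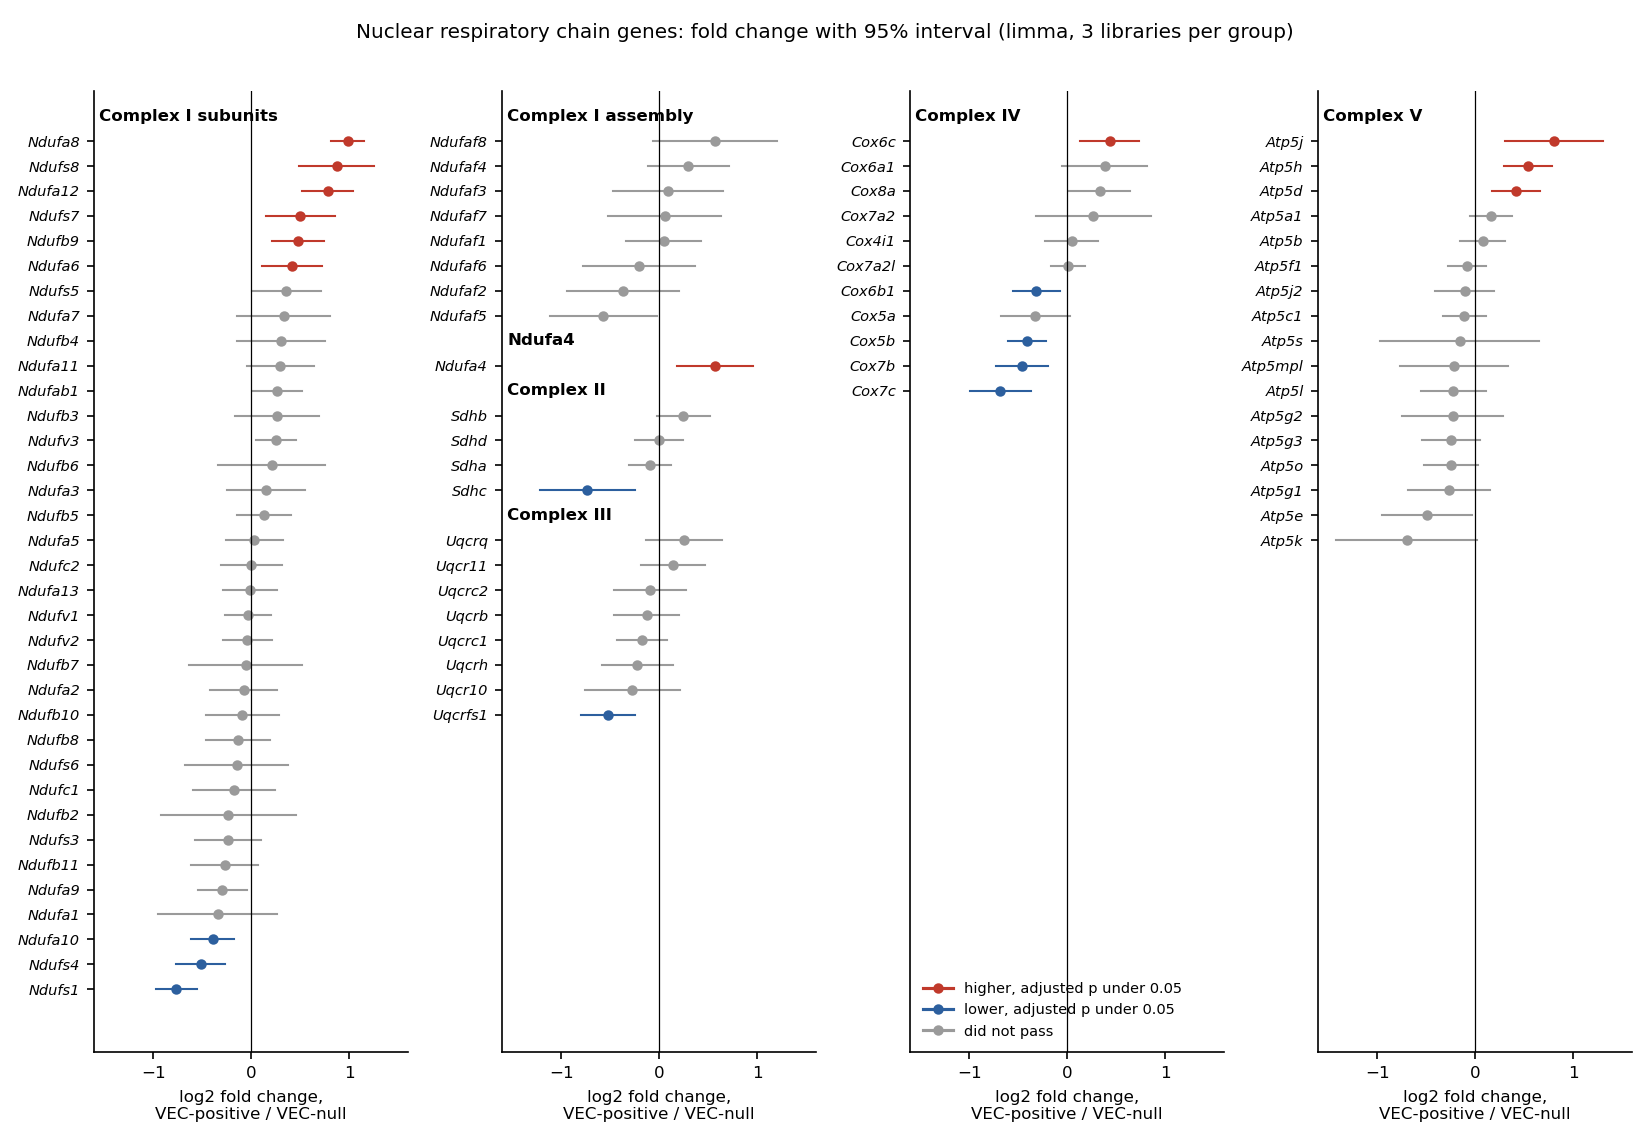
Log2 fold change, VEC-positive relative to VEC-null (points), with its 95% interval (lines) for 84 tested members, grouped by complex, from limma with 3 libraries per group. *Cox8b*, with 0 reads in VEC-null, is left out. Complexes I and IV hold both higher (red) and lower (blue) genes, complexes II and III a lower gene each and complex V higher genes alone, and most members (gray) did not pass.

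Apart from *Cox8b*, the largest rise and the largest fall in limma were both in complex I. Of its 36 subunits 6 rose (16.7%), 4 fell (11.1%) and 26 did not pass, beside 20.9% higher and 16.4% lower of all tested genes. *Ndufa8*, an accessory subunit, had 553.9, 516.6 and 558.6 normalized counts in VEC-null and 1032, 1111 and 1080 in VEC-positive libraries. The groups lay far apart, and the difference was 1.98-fold (log2 0.98, SE 0.074, adjusted p = 4.2e-05, limma). *Ndufa8* lies on chromosome 2 from 36036326 to 36049406 (mm10, minus strand). *Ndufa12*, another accessory subunit, had 278.5, 356 and 352 in VEC-null and 591.4, 551.4 and 541.5 in VEC-positive libraries, without overlap (log2 0.78, adjusted p = 0.00117).

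The 7 core subunits split both ways. *Ndufs8*, an iron-sulfur subunit, had 88.74, 81.11 and 74.47 in VEC-null and 140, 182.2 and 130.7 in VEC-positive libraries (log2 0.87, SE 0.17, adjusted p = 0.00442). *Ndufs7*, another iron-sulfur subunit, rose from 152 ± 29.8 to 213 ± 8.42 (SD, n = 3 each, adjusted p = 0.0321, limma), a call that 8 of 19 alternatives kept. It was lost without any single library other than VEC-null 3, at an adjusted p of 0.081, 0.0988, 0.0888, 0.111 and 0.0797 without VEC-null 1 and 2 and VEC-positive 1, 2 and 3 in limma. In the other direction, *Ndufs1*, the largest subunit, had 699.2, 719 and 775.8 in VEC-null and 404.7, 470.5 and 414.8 in VEC-positive libraries. These groups did not overlap either (log2 -0.77, SE 0.091, adjusted p = 0.000387). Of the other core genes, *Ndufs3*, *Ndufv1* and *Ndufv2* had log2 fold changes of -0.24, -0.03 and -0.04 and did not pass. *Ndufs3* has 1 near-identical copy in the annotation, so its reads are uncertain.

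**Figure D2:**
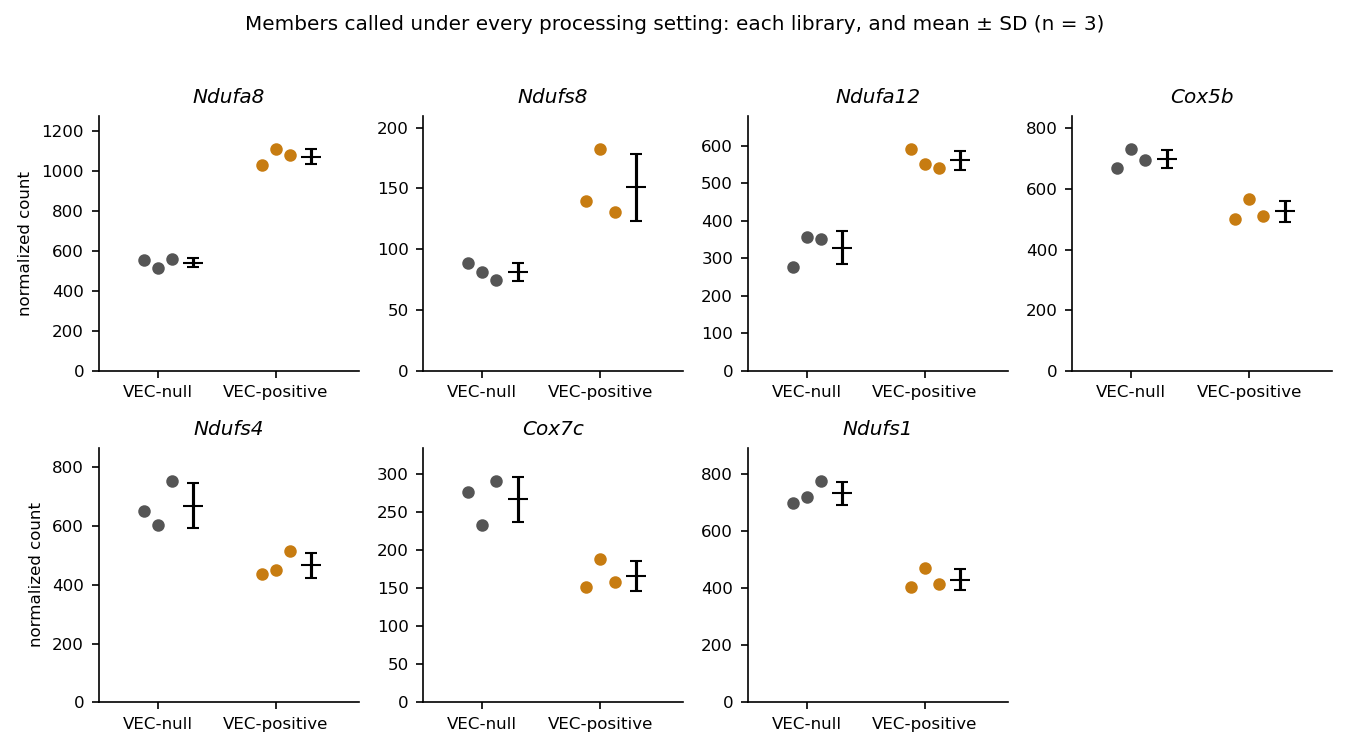
Normalized counts (axis from 0) of 7 members called under every setting, in each VEC-null (gray) and VEC-positive (orange) library, with mean and SD beside the points (n = 3). In every panel the 3 points of one group lie apart from the 3 of the other.

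Among the 29 accessory subunits 4 rose (13.8%) and 2 fell (6.90%), beside 20.9% and 16.4% of all tested genes. *Ndufs4*, an accessory subunit needed for a stable complex, had 650.3, 602.4 and 753.6 in VEC-null and 435.1, 450 and 513.2 in VEC-positive libraries, a fall without overlap (log2 -0.52, adjusted p = 0.00738). *Ndufa10* fell from 592 ± 52.1 to 451 ± 25.03 (SD, n = 3 each, adjusted p = 0.0133, limma), a call lost without VEC-positive 3 (adjusted p = 0.0569). *Ndufb9* and *Ndufa6*, chosen with their values in view, rose by 0.48 and 0.41 on the log2 scale. The call of *Ndufb9* was lost without VEC-positive 2 (adjusted p = 0.0539), and that of *Ndufa6* without VEC-null 1 (0.0505), VEC-null 2 (0.131), VEC-positive 1 (0.118) or VEC-positive 2 (0.161), in limma. *Ndufv3*, the most abundant accessory gene that did not pass, had an adjusted p of 0.0528. None of the 8 assembly factors *Ndufaf1* to *Ndufaf8* passed in limma, with log2 fold changes from -0.57 to 0.57, while 1 had an unadjusted p under 0.05 and edgeR and DESeq2 called 0. Without VEC-null 3 limma called 1 higher, and under equal totals 1 lower.

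*Ndufa4*, named for complex I and now known as a subunit of complex IV, had 172.9, 124.4 and 136.5 in VEC-null and 200.6, 253.3 and 190.4 in VEC-positive libraries. The groups did not overlap (log2 0.57, adjusted p = 0.0289), and 12 of 19 alternatives kept the call. It was lost without VEC-null 2 (adjusted p = 0.0955), VEC-positive 1 (0.0678) or VEC-positive 2 (0.114), in limma. Its hypoxia-induced paralog *Ndufa4l2* was below the filter, with 2 reads over the VEC-null and 13 over the VEC-positive libraries, a ratio of 6.35 with a 95% counting interval from 1.44 to 58.0.

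Complex II has 4 subunits, all encoded in the nucleus. *Sdhc*, a membrane anchor, had 131.6, 114.2 and 94.87 in VEC-null and 76.98, 51.63 and 76.66 in VEC-positive libraries. The lowest VEC-null value was above the highest VEC-positive one (log2 -0.73, SE 0.21, adjusted p = 0.0272). The call was lost without VEC-null 1 (adjusted p = 0.0832), VEC-null 2 (0.0771) or VEC-positive 2 (0.0884), in limma. The other anchor *Sdhd* had means of 271.9 in both groups, the flavoprotein *Sdha* had a log2 fold change of -0.10 and the iron-sulfur subunit *Sdhb* one of 0.25, and none of these passed.

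Complex III had 8 members tested, of which 1 fell (12.5%), beside 16.4% of all tested genes. *Uqcrfs1*, the Rieske iron-sulfur protein, had 434.5, 392.2 and 506.2 in VEC-null and 283.4, 307.8 and 331.7 in VEC-positive libraries, without overlap (log2 -0.52, SE 0.12, adjusted p = 0.00964). The call was lost with the correction for length and GC content. The core proteins *Uqcrc1* and *Uqcrc2* had log2 fold changes of -0.17 and -0.10, and *Uqcrb*, with the highest count per kilobase of transcript in the complex, one of -0.13. None of these 3 passed in limma. *Uqcrb* has 4 near-identical copies in the annotation, so its reads and its rank are uncertain.

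In complex IV 2 of 12 tested members rose (16.7%) and 4 fell (33.3%), beside 20.9% and 16.4% of all tested genes. *Cox7c*, a small structural subunit, had 275.4, 233.1 and 290.8 in VEC-null and 151.6, 188 and 157.4 in VEC-positive libraries, without overlap (log2 -0.68, SE 0.13, adjusted p = 0.00499). *Cox5b*, which binds zinc, had 670.2, 730.8 and 695.1 in VEC-null and 500.4, 566 and 511.6 in VEC-positive libraries (log2 -0.41, adjusted p = 0.00595). These groups were apart as well. *Cox7c* has 1 near-identical copy in the annotation, so its reads are uncertain. *Cox7b* fell by 0.46 on the log2 scale, a call lost without VEC-positive 1 (adjusted p = 0.0629, limma). With the correction for length and GC content *Cox7b* was at -0.29 and did not pass either (adjusted p = 0.153, limma). *Cox6b1* fell by 0.32, which turned to 0.021 under the correction for length and GC content, and did not pass without VEC-null 1 (adjusted p = 0.126), VEC-positive 1 (0.126), VEC-positive 2 (0.149) or VEC-positive 3 (0.0797), in limma. *Cox6c* rose from 1007 ± 91.2 to 1372 ± 237 (SD, n = 3 each, adjusted p = 0.0318, limma), and 11 of 19 alternatives kept the call. It was lost without VEC-null 1 (adjusted p = 0.0675), VEC-null 2 (0.106), VEC-positive 1 (0.085) or VEC-positive 2 (0.0993), in limma.

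Several complex IV subunits have tissue isoforms, and the common forms dominated in both groups. *Cox4i1* had 992.9 normalized counts per kilobase in VEC-null and 1023 in VEC-positive cells, while *Cox4i2*, its hypoxia-linked isoform, was at 0 in 5 libraries and at 2.92 in VEC-positive 2. *Cox7a1*, the heart and muscle form, lay between 0 and 4.59 and *Cox6b2*, the testis form, between 0 and 3.50. *Cox8b*, the muscle and brown fat form, had 0 reads in each VEC-null library and normalized counts of 10.5, 13.64 and 12.91 in VEC-positive libraries. The 39 reads set against a floor of 3 over the VEC-null group give a ratio of 12.7, which leaves out the counting error of the 39 reads. *Cox8b* passed the filter only through the VEC-positive libraries. The common form *Cox8a* had 257.7 and 325.4 and did not pass (adjusted p = 0.0898, limma), and neither did *Cox6a1*, *Cox7a2* and *Cox7a2l*. *Cox6a1* has 1 near-identical copy in the annotation, so its reads are uncertain.

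Complex V had 17 tested members, of which 3 rose (17.6%) and none fell in limma, beside 20.9% and 16.4% of all tested genes. Equal totals gave 0 higher and 9 lower, beside 11.2% and 35.3% of all tested genes. With the deposited scaling 1 member was lower at an unadjusted p under 0.05, and edgeR and DESeq2 called 0 lower. *Atp5j*, coupling factor 6 of the stalk, had 913.5, 674.1 and 956.6 in VEC-null and 1551, 1903 and 1066 in VEC-positive libraries. The groups did not overlap, but the VEC-positive libraries spread widely (log2 0.81, SE 0.22, adjusted p = 0.0205). The call was lost without VEC-null 2 (adjusted p = 0.0707), VEC-positive 1 (0.0757) or VEC-positive 2 (0.0695), in limma. Of its exonic bases 12.7% overlap *Gabpa* on the opposite strand, which itself rose by 0.63 on the log2 scale. *Atp5h*, subunit d of the stalk, had 566.1, 599.3 and 649 in VEC-null and 842.1, 1007 and 794.9 in VEC-positive libraries, without overlap (log2 0.54, adjusted p = 0.00536). It has 5 near-identical copies in the annotation, so its reads are uncertain. *Atp5d*, the delta subunit, rose by 0.41 on the log2 scale (adjusted p = 0.0172), and did not pass without VEC-null 2 (0.0605), VEC-positive 2 (0.075) or VEC-positive 3 (0.0619), in limma.

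The subunits that carry the catalytic sites did not pass. *Atp5b* had the highest level per kilobase of transcript among the members in both groups, at 2235 and 2342 normalized counts. *Atp5b* had 3827, 4126 and 4897 in VEC-null and 4500, 4580 and 4384 in VEC-positive libraries (log2 0.08, adjusted p = 0.583), and *Atp5a1* had 3577, 3951 and 4468 and then 4475, 4581 and 4302 (log2 0.16, adjusted p = 0.215). VEC-null 3 was the highest of its group for both. Without it both passed, at adjusted p = 0.0483 and 0.0173 in limma. The c-ring genes *Atp5g1*, *Atp5g2* and *Atp5g3* had log2 fold changes of -0.27, -0.23 and -0.25 and did not pass. *Atp5g2* has 2 near-identical copies in the annotation, so its reads are uncertain.

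Of the 13 subunits encoded by the mitochondrial genome 11 rose (84.6%, beside 20.9% of all tested genes) and none fell. Their median log2 fold change was 1.32. The same count was reached under every setting but without VEC-null 3, where 13 rose. *mt-Co1*, the catalytic subunit of complex IV, rose by 1.55 and *mt-Nd4l* of complex I by 1.54 on the log2 scale. *mt-Nd3* and *mt-Co3* did not pass (0.76 and 0.65). Over the libraries, these transcripts took 0.856% to 1.42% of all reads in VEC-null and 1.96% to 2.54% in VEC-positive cells. The nuclear members took 0.402%, 0.411% and 0.464% of the reads outside the mitochondrial genome in VEC-null libraries, and 0.378%, 0.425% and 0.390% in VEC-positive ones, which overlap. Per read of a nuclear member there were 2.35, 2.90 and 3.60 reads of a mitochondrially encoded subunit in VEC-null and 6.30, 7.88 and 6.93 in VEC-positive libraries, without overlap. All reads of the mitochondrial genome, most of them ribosomal RNA, made up 9.62% to 14.9% and 18.0% to 24.2% of the libraries, and the part of this share in the ratio was not tested.

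**Figure D3:**
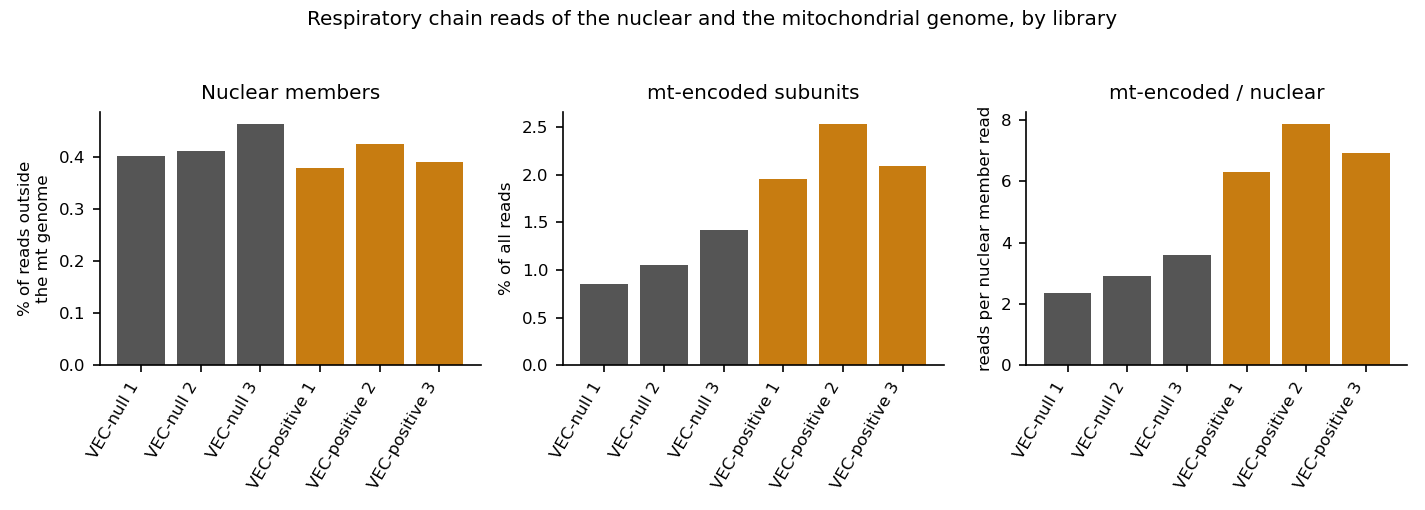
Reads of the nuclear members as a percent of reads outside the mitochondrial genome (left), reads of the 13 mitochondrially encoded subunits as a percent of all reads (middle) and the number of the latter per read of a nuclear member (right), 1 bar per library, VEC-null gray and VEC-positive orange. The left bars overlap between groups, and the right bars run from 2.35 to 3.60 and from 6.30 to 7.88.

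Partner genes outside the rule for members were counted by list, beside the 37.3% of all tested genes called. Of 18 complex IV assembly factors 1 rose (*Cox14*, 0.91) and 2 fell (*Coa5*, -0.58, and *Lrpprc*, -0.45), which is 16.7% called, and of 5 complex III factors 1 rose (*Uqcc3*, 1.12), or 20%. The call of *Cox14* was lost without VEC-positive 3 (adjusted p = 0.0536, limma). Of 9 further complex I assembly factors 3 were called (33.3%), *Tmem126b* with a log2 fold change of 0.39, *Aifm1* with -0.49 and *Acad9* with -0.46. In all, 8 of 19 alternatives lost the call of *Tmem126b*, including DESeq2 (adjusted p = 0.0576) and leaving out VEC-null 2, VEC-positive 1 or VEC-positive 2, and its value was 0.076 under equal totals. That of *Acad9* was lost in 5, among them DESeq2 (adjusted p = 0.0555) and leaving out the same libraries, and that of *Aifm1* in 4, among them leaving out VEC-null 2, VEC-positive 1 or VEC-positive 3. Of 5 genes in the list of supercomplex and isoform factors, which also holds *Coq10b*, 3 rose (60%). *Higd1a*, which binds complex IV, was at 1.10, while DESeq2 called 2 genes of the list higher. The call of *Coq10b* in this list was lost in 8 of 19 alternatives. Among these were DESeq2 (adjusted p = 0.0613) and leaving out any library but VEC-null 3. *Cycs*, cytochrome c, was at 0.23 on the log2 scale (adjusted p = 0.0456, limma), and *Cyc1* did not pass. The value of *Cycs* turned to -0.078 under equal totals, and 12 more of the 19 alternatives lost its call, among them edgeR (adjusted p = 0.0568), DESeq2 (0.101) and leaving out any library but VEC-null 3. None of 3 complex V factors passed in limma, with 0 at an unadjusted p under 0.05 and 0 called by edgeR or DESeq2.

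Among 18 genes of the tricarboxylic acid cycle, *Ogdh* (0.46) and *Sucla2* (0.32) rose and *Fh1* (-0.88) and *Idh3a* (-0.52) fell, which is 22.2% called. *Sucla2* lost its call in 10 of 19 alternatives, including DESeq2 (adjusted p = 0.054) and leaving out VEC-null 1, VEC-null 2, VEC-positive 1 or VEC-positive 2. Under equal totals *Sucla2* was at 0.0062 and *Ogdh* at 0.15, and neither passed. Of 77 mitochondrial ribosomal protein genes 1 rose (1.30%) and 5 fell (6.49%), beside 20.9% and 16.4% of all tested genes. Of 14 genes of mitochondrial DNA maintenance and transcription 0 rose and 2 fell (14.3%) in limma. In this list 1 gene was higher at an unadjusted p under 0.05, and edgeR and DESeq2 called 0 higher. Coenzyme Q synthesis had 1 of 11 higher (9.09%), and complex II assembly 1 of 4 (25%). Of 13 regulators of mitochondrial biogenesis 5 rose (38.5%) and 1 fell (7.69%), beside the same 20.9% and 16.4%. The rises were led by *Nfe2l2* (1.39), the regulator of the antioxidant response, and *Epas1* (1.01), a hypoxia-inducible factor. *Gabpa*, which encodes the DNA-binding subunit of GABP, rose by 0.63, while *Nrf1* (-0.14) and *Tfam* (0.23) did not pass. These last 3 genes were named with their values in view.

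**Figure D4:**
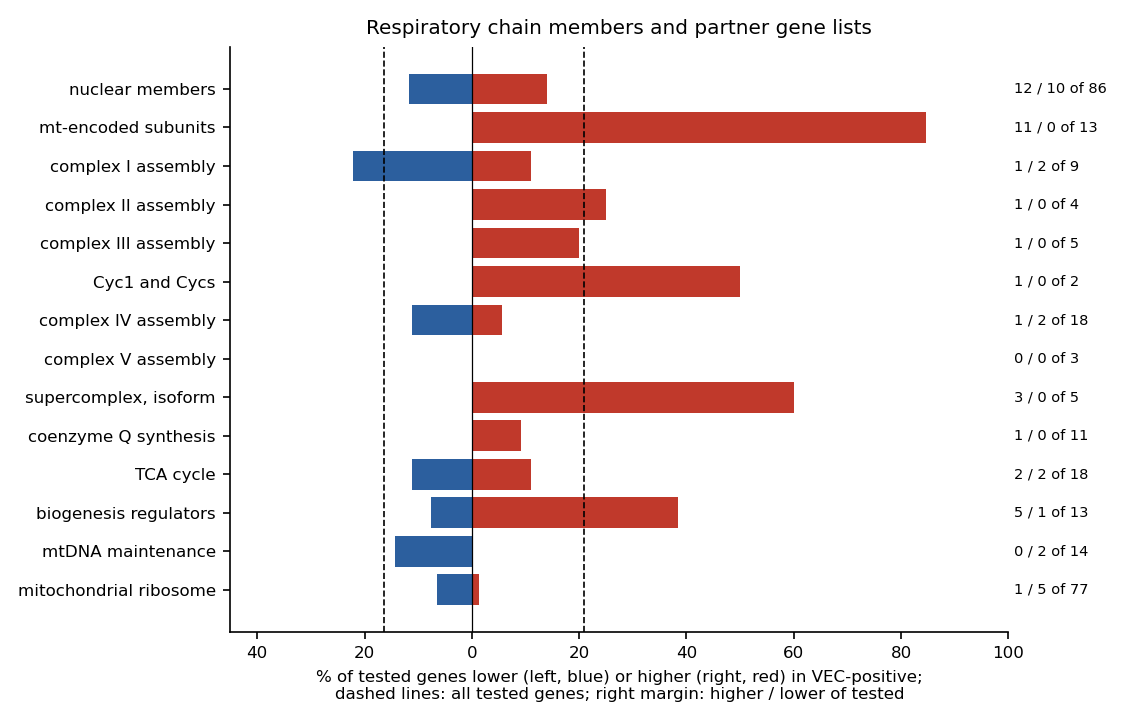
Percent of tested genes higher (red, right) and lower (blue, left) in VEC-positive cells for the nuclear members and each partner list, with counts at the right margin and dashed lines at the 20.9% and 16.4% of all tested genes. The mitochondrially encoded subunits reach 11 of 13 higher.

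Member transcripts are short, with a median of 891.5 bases against 2812 over all tested genes. Genes under 1000 bases tended lower, with a median log2 fold change of -0.31 over 1811 tested genes, of which 7.34% rose and 15.7% fell. The 12158 tested genes of 1000 bases or more had a median of 0.02, and 23.0% rose and 16.6% fell. Both sets hold genes of every type, while all members are protein-coding. The 47 members under 1000 bases had a median of 0.00, with 9 higher (19.1%) and 3 lower (6.38%). The 39 longer members had one of -0.08, with 3 higher (7.69%) and 7 lower (17.9%). Length was that of the longest principal transcript. When transcript support was ranked before length, a choice tried after the data were seen, the longer members numbered 37, with 1 higher and 7 lower, and the 49 shorter ones had 11 higher and 3 lower. The part of this transcript length in the member results was not tested. The correction for length and GC content used another length, that of all exons of a gene joined, and gave 13 higher and 7 lower.

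**Figure D5:**
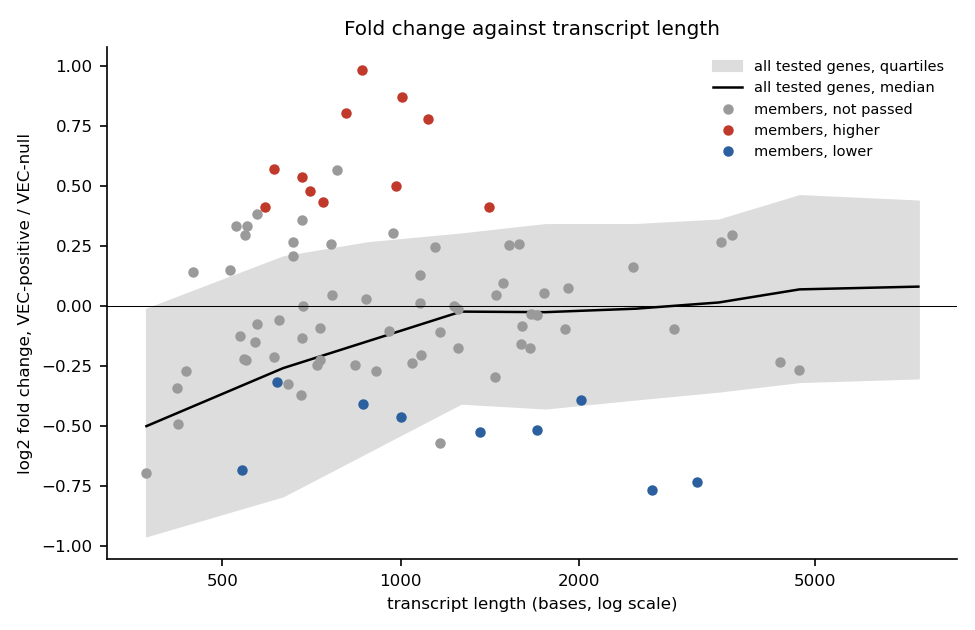
Log2 fold change against transcript length (log axis) for 84 tested members, without *Cox8b* (points, colored by call) over the median (line) and quartiles (gray band) of all tested genes in bins of length. The line lies below 0 under 1000 bases, while members there lie on both sides of 0.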

How the data were processed

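RNA of 6 libraries was prepared with a stranded total RNA kit. Per the labels, the authors' tools were Trim Galore, TopHat2 2.1.1 and DESeq2 1.14, with the mm10 build. Neither the program that counted reads nor its annotation is named in the sources used here. The signal values deposited by the authors are counts per gene, each library divided by its own size factor, and 100% of them came out as whole reads within 0.01 of a read. Libraries held 6036155 to 14136376 reads.

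Of 24080 genes, 23908 matched GENCODE M21. Genes entered the test if 3 or more libraries reached 10 normalized counts, which left 14032. After adding 1, log2 values were fitted in limma 3.58.1 (R 4.3.3) with a mean-variance trend. Tests were two-sided. The Benjamini-Hochberg method adjusted p over the 14032 genes, and 0.05 was the threshold. Fold changes are on that log2 scale and understate changes of low genes. Intervals and floors on reads cover counting error only. Of the annotated members 4 had no matching gene in the table, and 4 more were below the filter. The values of 1 member, kept in the counts, are not reported here.

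Members and lists were chosen with earlier results of these data known. The rule for named genes took, per complex, up to 3 rises and 3 falls past the threshold with a mean of at least 50 and the 2 most abundant genes that did not pass. It also took core and catalytic subunits, isoform pairs, members below the filter, *Cdh5*, and up to 2 rises and 2 falls per partner list. Alternatives were other pseudocounts (0.5 and 5), no filter, a stricter filter (50), other scalings (TMM, equal totals, equal totals outside the mitochondrial genome), limma without trend and with a robust prior, edgeR 4.0.16, DESeq2 1.42.0, a length and GC correction, the replicate number as a block and leaving out each library. The edgeR and DESeq2 fits used the recovered reads. The length and GC correction used the joined length of all exons of a gene and the GC content of its longest transcript. A different choice of transcript for length was added after the data were seen, and both results are given. The fits were tested on simulated data. Near-identical copies were transcripts with at least 90% identity over at least 50% of a member's length, and 16 members have one. Figures used matplotlib 3.10.9.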

Additional observations from a re-analysis of the deposited data

How the results depend on the processing

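Leaving out each library in turn gave 5 to 18 members higher and 8 to 16 lower. By complex, it gave 3 to 7 higher and 3 to 6 lower among complex I subunits, 0 to 1 higher and 0 to 1 lower in complex II, 1 to 2 lower in complex III, 1 to 3 higher and 2 to 4 lower in complex IV, 1 to 5 higher and 0 to 3 lower in complex V and 0 to 1 higher among complex I assembly factors. For the partner lists together, with 192 genes tested, the ranges were 22 to 43 higher and 7 to 17 lower, beside 28 and 14 with all libraries. These lists include the 13 mitochondrially encoded subunits, of which 11 were higher with all libraries. The upper ends of 18 and 16 members and of 43 partner genes came without VEC-null 3, and the low of 5 without VEC-positive 2.

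Under equal totals 4 members were higher and 35 lower, with 3 and 11 among complex I subunits, 3 lower in complex II, 5 lower in complex III, 1 higher in complex IV, 0 higher and 9 lower in complex V, 1 assembly factor lower and 68 partner genes lower. The members' median was -0.36, and 11.2% of tested genes were higher and 35.3% lower. There *Cox7a2l* was at -0.30 and *Cycs* at -0.078. Under equal totals outside the mitochondrial genome 6 members were higher, with 3 in complex I and 1 in complex IV, 3 in complex V were lower, 33 partner genes were lower, and the median was -0.19. With that scaling 14.6% of tested genes were higher and 22.6% lower. With the length and GC correction the median was 0.041, complex III had 0 lower and complex IV 2 lower, and *Cox6b1* was at 0.021. Limma without trend gave 7 members higher and 1 in complex IV, and the stricter filter 1 in complex IV. Of all tested genes 18.7% were higher without trend and 25.4% with the stricter filter. Without a filter 12.1% of tested genes were higher and 9.93% lower, since more genes were tested. The members' share of reads differed by -0.0625 percentage points, or -0.0282 outside the mitochondrial genome. On recovered reads edgeR called 2817 of 14032 genes higher and 2506 lower, with 12 and 11 members, and DESeq2 2568 and 2301, with 10 and 9 members. The cause of the other changes was not tested.

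The replicate numbers did not pair the libraries (correlations of 0.076, -0.333 and -0.295). With the replicate block 7 members were higher, 1 in complex IV was higher, 0 in complex II were lower and 9 partner genes were lower. Of all tested genes 17.1% were higher and 12.4% lower with this block.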
